A study of Mus musculus with 1298 samples.

Results

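Ebf1, Ebf2 and Ebf3 encode early B-cell factors, and their rows were taken by symbol from the single-cell and bulk count tables. They are 3 of the 15147 genes listed in both single-cell tables. All were above 0 in at least 1 class on each platform and all passed the filter on low counts in every comparison below. Early B-cell factors are DNA-binding proteins that share an atypical zinc finger domain and a helix-loop-helix dimerisation motif. Ebf1 is best known for B-cell commitment and also acts early in adipogenesis, Ebf2 is a marker and regulator of committed brown fat precursors, and Ebf3 and its relatives are used by newly born neurons as they leave the progenitor layer. Several members are often made by the same cell, and they recognise closely similar DNA sites.

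Cells came from Pax7CreER:R26R-stop-EYFP mouse embryos, in which tamoxifen at E9.5 switched on YFP in cells transcribing Pax7 and in all their descendants. YFP+ cells were sorted on 3 days, E12.5, E14.5 and, last, E16.5, from embryos stripped of head, limbs and viscera. Pax7 is active in the somite and in the dorsal neural tube, so neural cells were labelled beside muscle, dermal and brown fat cells. Cells of several embryos were pooled, no animal is named, and every group carried the same alleles and treatment. Each day gave 1 droplet library (10x, 3' end counts of molecules, UMIs) and 4 to 7 plates of full-length Smart-seq2 cells, whose sequencing batches follow the day. Of 3916 deposited cells, 3852 passed a mitochondrial limit of 8%, 2921 by 10x and 931 by Smart-seq2. Median depth was 2185, 5930 and 1608 UMIs by 10x in the order of the days, and 393416, 769833 and 829590 estimated counts by Smart-seq2. The 10x libraries shared 3 cell barcodes.

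Cells were clustered without the Ebf genes and named from markers, with the study's abbreviations: early progenitor (EP), late progenitor (LP), dermal fibroblast (DF), brown adipocyte (BA), pericyte (PE), early and late myogenic (EM, LM), neuron and neural progenitor. These rebuilt names are written X-like, and a difference from the study's own classes may come from them. The names came from these markers, so finding the markers in the named classes is no separate check. BA-like cells had 10 of 10 brown adipocyte markers, with 15140 summed CPM (counts scaled to the size of the library or class sum) by 10x. DF-like cells had 12 of 12 dermal markers, with 6821 and 3937 summed CPM by 10x at E14.5 and E16.5. The EP name is less specific. By 10x its 10 markers summed to 1183 CPM in EP-like cells, against 4802 and 2036 CPM in DF-like cells on those days. The other classes had less than EP-like cells. The EP cluster had the lowest naming score, 0.962. A platform and day together are called a pool, and levels are CPM of the summed counts of a class in a pool. Class sums in a pool are the replicates, so p-values measure the spread between platforms and days and no spread between animals. In summed cells, fewer transcribing cells and less RNA per cell cannot be told apart.

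The family members are close enough in sequence that a read could in principle fit more than 1 of them. Over aligned coding bases, Ebf1 and Ebf2 were 73.5% identical, Ebf1 and Ebf3 79.5% and Ebf2 and Ebf3 75.7%. No stretch of 31 bases was shared by the transcripts of any pair, and the longest identical coding run was 24 bases (Ebf1 and Ebf3). Among coding exons of equal length in all 3 genes, the one whose bases differ least is shown, so that the copies can be compared base by base. Even this exon differs at 37 positions. It is the second exon of Ebf1 (GRCm38, chr11:44620414-44620570, plus strand), the third of Ebf2 (chr14:67237449-67237605, plus strand) and the second of Ebf3 (chr7:137313518-137313674, minus strand). The sequences are from GENCODE vM21, with capitals at positions where the 3 genes are not all alike.
Ebf1: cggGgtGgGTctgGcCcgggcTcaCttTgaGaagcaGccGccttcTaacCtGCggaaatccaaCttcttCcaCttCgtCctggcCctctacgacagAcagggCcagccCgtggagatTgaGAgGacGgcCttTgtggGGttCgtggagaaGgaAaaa
Ebf2: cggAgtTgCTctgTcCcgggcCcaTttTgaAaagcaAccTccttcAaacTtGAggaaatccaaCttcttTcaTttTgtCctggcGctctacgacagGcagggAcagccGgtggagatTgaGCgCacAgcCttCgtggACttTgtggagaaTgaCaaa
Ebf3: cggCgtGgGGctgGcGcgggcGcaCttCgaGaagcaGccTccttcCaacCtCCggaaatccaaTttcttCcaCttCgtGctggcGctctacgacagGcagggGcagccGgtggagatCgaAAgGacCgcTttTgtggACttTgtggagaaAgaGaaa
Lower-case runs between capitals in this exon stay far below the length of a Smart-seq2 or 10x read, and 76.43% of its bases are identical in all 3 genes. The genes themselves lie on different chromosomes: Ebf1 at chr11:44617317-45008091, Ebf2 at chr14:67233292-67430918 and Ebf3 at chr7:137193673-137314445.

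Different patterns appeared across the classes. Ebf1 was found in mesenchymal, dermal, brown adipocyte-like, mural and neuronal cells. Ebf2 was found in progenitors, brown adipocyte-like cells, mural cells and neurons but hardly in DF-like cells. Ebf3 was found in progenitors, neurons, early myogenic cells and, at a low level, brown adipocyte-like cells.

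**Figure D1:**
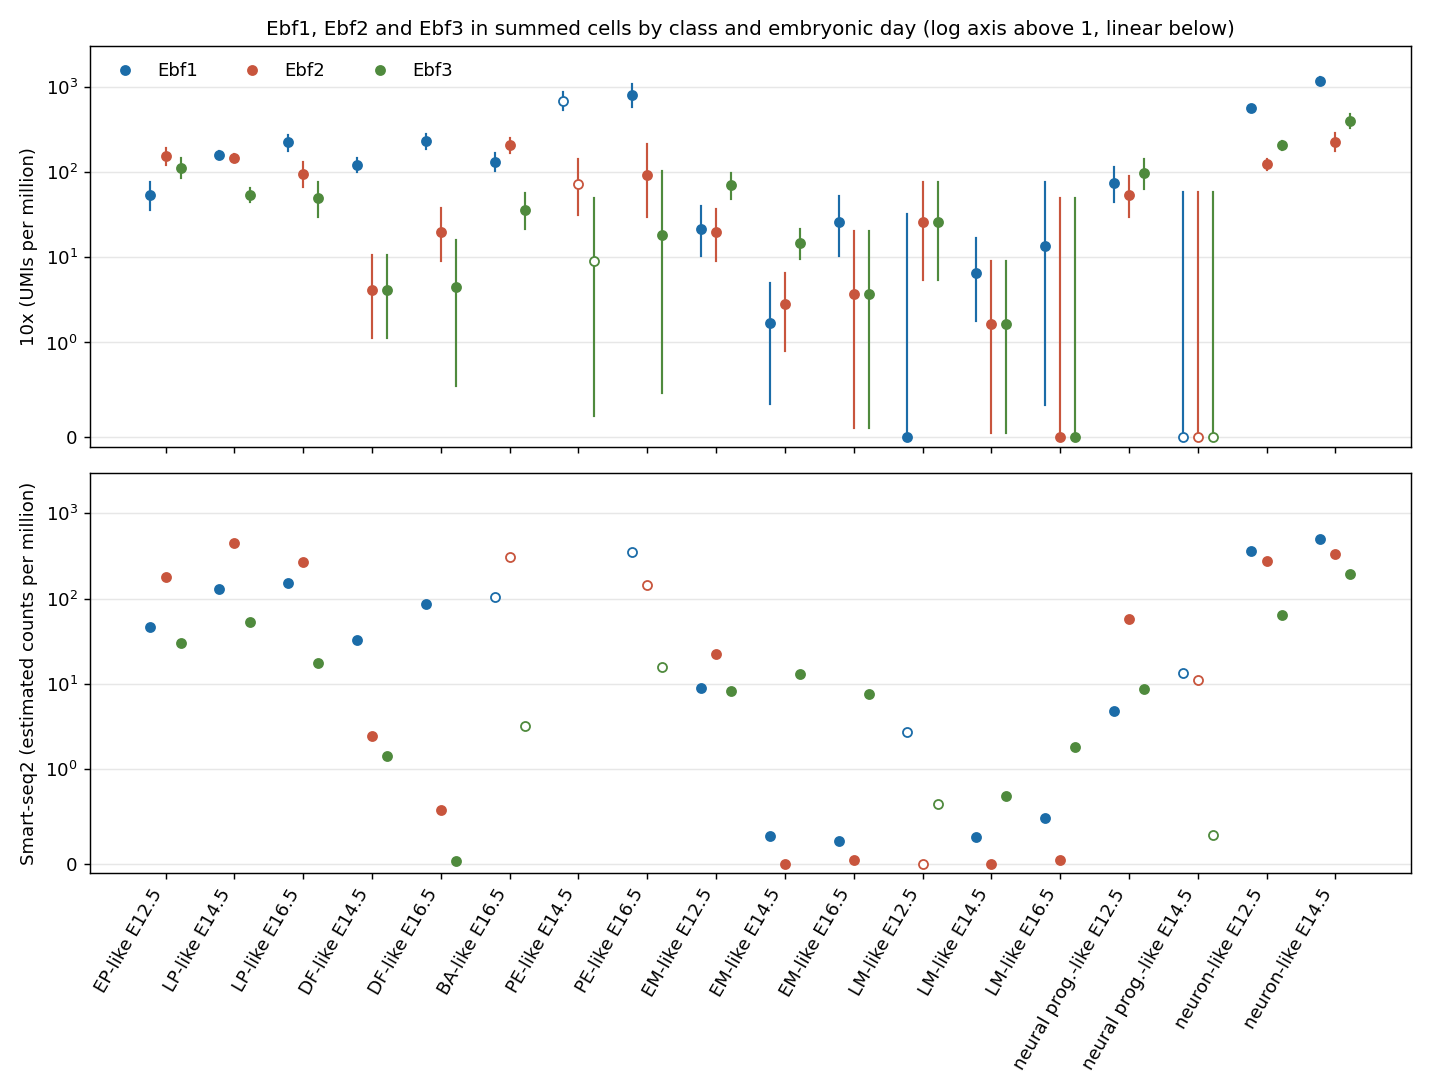
Levels of Ebf1, Ebf2 and Ebf3 by class and embryonic day, in CPM of UMIs (upper panel, bars are exact 95% Poisson intervals) and in CPM of Smart-seq2 estimated counts (lower panel, no interval), on an axis that is logarithmic above 1 and linear below. Open points are sums of fewer than 20 cells; Ebf2 and Ebf3 are low in DF-like cells while Ebf1 stays between 122.1 and 230 CPM there by 10x, and neuron-like cells at E14.5 have the highest Ebf1 (1169 CPM).

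In EP-like cells at E12.5, 10x gave 152.4 CPM for Ebf2 (95% interval 120.8 to 190), 112.4 CPM for Ebf3 (85.6 to 144.99) and 53.3 CPM for Ebf1 (35.4 to 77.1). The Smart-seq2 sum of the EP-like cells gave 178.7 CPM for Ebf2, 29.9 for Ebf3 and 46.2 for Ebf1. The Smart-seq2 levels of Ebf1 and Ebf2 lay within the 10x intervals, and that of Ebf3 lay below. Over the 6 plates with at least 10 EP-like cells, Ebf2 ran from 109.1 to 360 CPM and Ebf1 from 4.61 to 75.5 CPM. The plates with the lowest Ebf2 were those with the highest Ebf1.

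LP-like cells kept all 3 genes. Ebf1 stood at 156.1 CPM (140 to 173.7) at E14.5 and 221.8 CPM (177.4 to 273.9) at E16.5 by 10x, and at 127.6 and 152.3 CPM by Smart-seq2. Ebf2 stood at 145.4 CPM (130 to 162.4) and 95.4 CPM (67.2 to 131.5) by 10x and at 447.2 and 265.4 CPM by Smart-seq2. Ebf3 stood at 53.9 CPM (44.5 to 64.6) and 49 CPM (29.5 to 76.5) by 10x and at 53.3 and 17.4 CPM by Smart-seq2. From E14.5 to E16.5 the sums of Ebf1 were higher and those of Ebf2 lower on both platforms, but neither change passed the test given below.

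DF-like cells had Ebf1 and very little of the others. Ebf1 was 122.1 CPM (101.04 to 146.2) at E14.5 and 230 CPM (188.1 to 278.9) at E16.5 by 10x, and 33 and 85.9 CPM by Smart-seq2. By 10x Ebf2 gave 4 UMIs at E14.5 and 9 UMIs at E16.5, or 4.14 CPM (1.13 to 10.6) and 19.9 CPM (9.11 to 37.8). Its Smart-seq2 sums were 2.44 and 0.565 CPM. Ebf3 gave 4 and 2 UMIs at E14.5 and E16.5, and Smart-seq2 sums of 1.41 and 0.0306 CPM. The 10x sums of Ebf2 in DF-like cells at E14.5 lay beside those of EM-like cells at the same day (2.80 CPM, 0.911 to 6.54), with overlapping intervals.

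The brown adipocyte-like class had enough cells at E16.5 only. By 10x it showed Ebf2 at 206.3 CPM (168.6 to 250), Ebf1 at 130.9 CPM (101.3 to 166.6) and Ebf3 at 35.7 CPM (21.2 to 56.4). The 14 Smart-seq2 cells gave 307.2, 103.9 and 3.21 CPM in the same order. PE-like cells, led by the mural cell marker Rgs5, had the highest Ebf1 outside the nervous system, 789 CPM (571 to 1063) in 30 cells by 10x and 347.7 CPM in 15 cells by Smart-seq2. Ebf2 in the PE-like cells was 91.7 CPM (29.8 to 214.1) and 143.3 CPM, and Ebf3 rested on 1 UMI by 10x and stood at 15.7 CPM by Smart-seq2.

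At E16.5 the 10x order for Ebf1 was PE-like, DF-like, LP-like, BA-like and EM-like. The intervals of DF-like and LP-like cells overlapped, and those of PE-like cells above and BA-like cells below each did not reach that of the DF-like cells. For Ebf2 the order was BA-like, LP-like, PE-like, DF-like and EM-like; BA-like and LP-like intervals did not overlap, whereas the PE-like interval, from 5 UMIs, overlapped all its neighbours but EM-like. Intervals of counts cover counting error only.

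Among EM-like cells, Ebf3 was found on all 3 days and both platforms. At E12.5 the 10x sums were 21.7 CPM for Ebf1 (10.4 to 39.9), 19.5 for Ebf2 (8.93 to 37.1) and 69.4 for Ebf3 (47.5 to 98), and the Smart-seq2 sums were 8.93, 22.2 and 8.31 CPM. In the same EM-like sums, the 10 early progenitor markers added up to 219.1 CPM by 10x and 370.6 CPM by Smart-seq2 at E12.5, against 53.8 and 87.7 CPM at E14.5 and 43.9 and 93.9 CPM at E16.5; their part in the E12.5 Ebf levels was not tested. At E14.5 Ebf3 was 14.6 CPM (9.53 to 21.4, 26 UMIs in 25 cells) by 10x and 13.2 CPM by Smart-seq2, while Ebf1 gave 3 and Ebf2 5 UMIs, with 0.291 CPM and none by Smart-seq2. At E16.5 Ebf3 gave 1 UMI by 10x and 7.58 CPM by Smart-seq2. Ebf1 gave 7 UMIs there, all in 1 cell, and 0.244 CPM by Smart-seq2. LM-like cells, which express Myog and contractile genes, had at most 26.1 CPM of any member by 10x, on 4 UMIs or fewer, and at most 2.70 CPM by Smart-seq2.

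The neural classes differed most in Ebf1. Neuron-like cells at E12.5 had 562 CPM of Ebf1 (525.02 to 600), 122.8 of Ebf2 (105.98 to 141.6) and 204.3 of Ebf3 (182.4 to 228.1) by 10x, and 364.2, 271.6 and 64.1 CPM by Smart-seq2. At E14.5 they had 1169 CPM of Ebf1 (1049 to 1298), 225.6 of Ebf2 (174.9 to 286.6) and 397.4 of Ebf3 (328.9 to 475.9) by 10x, and 500.6, 330 and 195.9 CPM by Smart-seq2. All 3 were higher at E14.5 on both platforms, a description with no test since different clusters hold most neurons on the 2 days. Neural-progenitor-like cells at E12.5 had 73.4 CPM of Ebf1 (44.2 to 114.6), 54.1 of Ebf2 (29.6 to 90.7) and 96.6 of Ebf3 (62.5 to 142.6) by 10x, and 4.74, 58.3 and 8.71 CPM by Smart-seq2. At E14.5 the 18 neural-progenitor-like cells by 10x held no UMI of any member, where 3 counts would be 47.9 CPM of each, and the 12 by Smart-seq2 held 13.3, 11.1 and 0.305 CPM. Of these 18 cells 11 belonged to a cluster led by Fabp7 and Aldoc that held no 10x cell at E12.5, so the 2 days hold different cells under this name.

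The comparison of DF-like with LP-like sums asks which genes separate the dermal branch from the cells that stay progenitors. Ebf2 and Ebf3 were lower in DF-like cells in all 4 pools, and Ebf1 was not separated at the threshold. Of the 3 members, 2 passed edgeR's quasi-likelihood test (Benjamini-Hochberg adjusted p under 0.05, pool as a block, 8 sums), where 11.4% of all 14182 genes tested passed in either direction. Ebf2 fell by 7.37 on the log2 scale (SE 0.82, adjusted p = 0.000353, edgeR) and Ebf3 fell by 5.68 (SE 0.71, adjusted p = 0.000695, edgeR). Ebf1 had a log2 difference of -0.84 (SE 0.27, unadjusted p = 0.0102, adjusted p = 0.0724, edgeR). The platforms differed for Ebf1: -0.16 with 10x pools only and -1.37 with Smart-seq2 pools only (adjusted p = 0.78 and 0.135, edgeR). The fitted sizes of Ebf2 and Ebf3 depend on the few counts in DF-like cells. With 10x pools only they were -3.73 for Ebf2 and -3.59 for Ebf3. With Smart-seq2 pools only they were -8.12 and -6.60, where Ebf3 passed no more (adjusted p = 0.0682, edgeR). The 11 late progenitor markers summed to 3080 and 3174 CPM in DF-like cells by 10x at E14.5 and E16.5, against 4656 and 7076 in LP-like cells, a smaller difference than that of Ebf2 and Ebf3.

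Of the family and zinc finger partner list, neither Ebf4, the last member of the family, nor Zfp423, a preadipocyte regulator, nor Zfp521, which antagonises it, passed between DF-like and LP-like cells by edgeR. At an unadjusted p under 0.05 there was 1 of 3 (Zfp423, log2 difference -0.96) and DESeq2 called 0 of 3. None of 7 tested brown fat genes passed by edgeR either, with 1 at an unadjusted p under 0.05 and 0 by DESeq2. The median log2 difference was -0.39 for the partners and -0.16 for the brown fat genes, against -0.04 over all genes and -5.68 over the members.

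**Figure D2:**
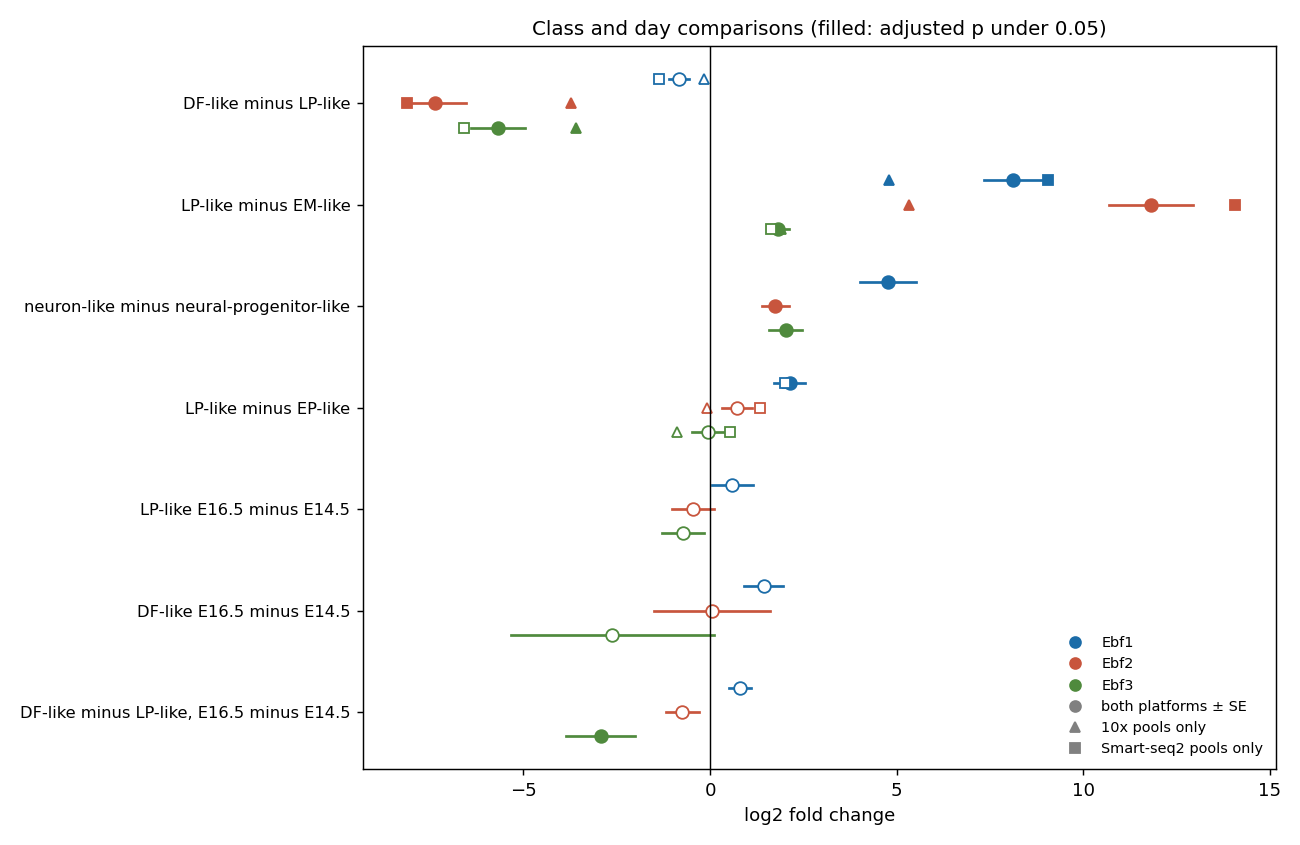
Log2 fold changes of Ebf1, Ebf2 and Ebf3 in the 7 tested comparisons, circles with SE bars for both platforms together and triangles or squares for a single platform; filled symbols passed an adjusted p of 0.05. Ebf2 and Ebf3 lie at -7.37 and -5.68 for DF-like minus LP-like cells, and all 3 members lie above 0 for LP-like minus EM-like and for neuron-like minus neural-progenitor-like cells.

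The myogenic branch was set against the progenitors in the same way, with LP-like sums shared between the comparisons. All 3 members were lower in EM-like cells than in the LP-like ones of E14.5 and E16.5, in a comparison where 33.4% of 14068 genes passed. The log2 difference, LP-like minus EM-like, was 8.13 for Ebf1 (SE 0.79, adjusted p = 5.44e-05, edgeR), 11.81 for Ebf2 (SE 1.12, adjusted p = 4.87e-05, edgeR) and 1.82 for Ebf3 (SE 0.30, adjusted p = 0.00122, edgeR). By 10x alone the differences were 4.79, 5.32 and 1.90, and by Smart-seq2 alone 9.05, 14.07 and 1.63, with Ebf3 then past the threshold no more (adjusted p = 0.0794, edgeR). The size for Ebf2 is not a measured fold, because EM-like cells held 0 counts at E14.5 and 2 at E16.5 by Smart-seq2.

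The partner list had 2 of 3 genes higher in LP-like cells, where 33.4% of the 14068 genes passed in either direction. These were Ebf4 (log2 difference 9.32, SE 2.01, adjusted p = 0.0117, edgeR) and Zfp423 (2.24, SE 0.77, adjusted p = 0.0487, edgeR). The Zfp423 call was lost with 10x pools only (0.69, adjusted p = 0.402, edgeR), with Smart-seq2 pools only (3.13, adjusted p = 0.169, edgeR), without the 10x E14.5, 10x E16.5 or Smart-seq2 E16.5 pool (adjusted p = 0.0636, 0.104 and 0.106, edgeR), with RLE size factors (0.0558), with all genes in the clustering (0.0547) and with all deposited cells (0.0529). The Ebf4 call was lost with Smart-seq2 pools only (adjusted p = 0.0765, edgeR), and Ebf4 did not pass the filter on low counts with 10x pools only or without either Smart-seq2 pool. Ebf4 was scarce even in LP-like cells, at 3.95 and 1.502 CPM by Smart-seq2 and on 4 and 1 UMIs by 10x. Zfp521 was present in both classes, 121.2 and 40.4 CPM in LP-like cells and 111.7 and 124.2 CPM in EM-like cells by Smart-seq2, with a log2 difference of -0.48 (adjusted p = 0.284, edgeR). Of 7 tested brown fat genes, 3 were higher in LP-like cells, where 33.4% of all genes passed in either direction. They were Pparg, the master regulator of adipocyte formation (5.92), and the CCAAT-binding factors of adipogenesis Cebpa (5.76) and Cebpb (1.98). The others did not pass: Ppara lay higher (1.84), and Prdm16 (-1.49), Ppargc1a (-0.59) and Dio2 (-6.46) lay lower in LP-like cells. The list's median was 1.84, against 0.15 over all genes.

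LP-like minus EP-like cells gives the step from early to late progenitors, in which class and day cannot be told apart because no pool held 20 cells of both. Of the members 1 of 3 passed, where 5.86% of 14037 genes did. Ebf1 rose by 2.13 on the log2 scale (SE 0.41, adjusted p = 0.00936, edgeR), whereas Ebf2 differed by 0.73 (SE 0.41, adjusted p = 0.35) and Ebf3 by -0.05 (SE 0.45, adjusted p = 0.97). The EP-like sums were both of E12.5, so leaving out either platform of that day leaves a single EP-like sum. Such a fit cannot say whether the call for Ebf1 holds. Its difference was 2.01 without the 10x E12.5 sum and 2.08 without the Smart-seq2 E12.5 sum. Among 6 tested brown fat genes, Pparg (8.02) and Cebpb (2.25) passed as higher in LP-like cells. The others did not pass: Cebpa (2.22) and Ppargc1a (0.74) lay higher, and Prdm16 (-2.52) and Ppara (-0.68) lay lower. None of the 3 partners passed by edgeR; 1 was at an unadjusted p under 0.05 and also called by DESeq2, Ebf4.

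Within LP-like cells the sums of E16.5 and E14.5 were compared, where 0.729% of 13588 genes passed and none of the 3 members did by edgeR, with 0 at an unadjusted p under 0.05 and 0 by DESeq2. The log2 differences were 0.60 for Ebf1 (SE 0.55), -0.46 for Ebf2 (SE 0.56) and -0.72 for Ebf3 (SE 0.55). Different clusters held most LP-like cells on these days: at E14.5 those led by C1qtnf3 and by Igfbp3, and at E16.5 by 10x that led by Clec3b. Within DF-like cells 0.723% of 13005 genes passed and again none of the members did by edgeR, with 1 at an unadjusted p under 0.05 and 0 by DESeq2. That member was Ebf1, with a log2 difference of 1.44 (SE 0.52, adjusted p = 0.301, edgeR). Ebf2 differed by 0.05 (SE 1.55) and Ebf3 by -2.62 (SE 2.72). DF-like cells too came from different clusters, led by Crabp1 at E14.5 and by Twist2 at E16.5. Only 4 sums and 1 residual degree of freedom stood behind each of these tests.

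The share of cells with Ebf1 moved with the sums in DF-like cells. By Smart-seq2, 23 of 49 cells (46.9%, exact 95% interval 32.5 to 61.7) had a count at E14.5 and 52 of 73 (71.2%, 59.4 to 81.2) at E16.5. By 10x the shares were 27.2% and 19.9% at median depths of 5474 and 1357 UMIs. With every cell thinned to 1000 UMIs they became 6.79% (3.44 to 11.8) and 14.4% (10.4 to 19.1), so the order turned at equal depth; 40 shallower cells were left out at E16.5. EM-like cells, a class of another fate, had Ebf1 in 1.39% and 0.654% unthinned, at 8167 and 1717 UMIs. Ebf2 in DF-like cells, 1.85% and 2.57% of cells by 10x, lay beside the EM-like shares of 2.31% and 0.654%, with overlapping intervals. By Smart-seq2, 6 of 49 and 6 of 73 DF-like cells had Ebf2, against 0 of 57 and 1 of 59 EM-like cells. In these DF-like sums 1 cell held 60.4% and 75.7% of the Ebf2 counts. The part of free RNA in these shares was not tested.

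The difference between DF-like and LP-like cells was then compared between the days. Here 1 of 3 members passed, where 3.68% of 14182 genes did: for Ebf3 the difference was lower at E16.5 by -2.93 on the log2 scale (SE 0.92, adjusted p = 0.0423, edgeR). This call came from 2 counts in DF-like cells of E16.5 by Smart-seq2 and was not made by DESeq2 (-2.23, adjusted p = 1.0). Without the Smart-seq2 E16.5 pool its sign turned (1.59, adjusted p = 0.875, edgeR). It also missed the threshold without the 10x E14.5 pool (-2.72, adjusted p = 0.0602, edgeR) and without the Smart-seq2 E14.5 pool (-4.07, adjusted p = 0.135, edgeR). Ebf1 gave 0.80 (SE 0.30, adjusted p = 0.124, edgeR) and passed without the 10x E14.5 pool (1.42, adjusted p = 0.000978, edgeR), but not without the Smart-seq2 E14.5 pool (-0.05). Ebf2 gave -0.74 (SE 0.45, adjusted p = 0.526, edgeR), and passed in opposite directions without the 10x E16.5 pool (-1.63, adjusted p = 0.017, edgeR) and without the Smart-seq2 E16.5 pool (5.17, adjusted p = 0.00984, edgeR).

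Neuron-like and neural-progenitor-like cells shared the E12.5 pools, 4 sums in all with 1 residual degree of freedom. The p-values here thus measure the spread between the platforms on 1 day only. All 3 members were higher in neuron-like cells, where 4.31% of 13012 genes passed. Ebf1 had the largest difference of the members, 4.77 on the log2 scale (SE 0.75, adjusted p = 0.0147, edgeR), followed by Ebf3 with 2.03 (SE 0.45, adjusted p = 0.0452, edgeR) and Ebf2 with 1.75 (SE 0.36, adjusted p = 0.0353, edgeR). The 10 neuronal markers summed to 1035 CPM by 10x and 1567 CPM by Smart-seq2 in the neural-progenitor-like cells, against 7030 and 11878 CPM in neuron-like cells, and the part of such cells in the progenitor levels was not tested. At a finer clustering the Ebf2 difference was -0.13 and that of Ebf3 0.73, neither past the threshold, while Ebf1 still passed.

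Of 19 neurogenic and neuronal factors 18 were tested, and 9 were higher in neuron-like cells, with a median log2 difference of 2.51 against 0.08 over all genes. In this comparison 4.31% of all genes passed in either direction. The higher ones included the spinal interneuron factors Lhx1 (5.93), Lhx5 (4.22) and Pax2 (5.16) and the sensory and dorsal factors Pou4f1 (2.82), Tlx3 (2.20) and Lbx1 (2.95). The proneural genes Neurog1 (-0.91), Neurog2 (-1.10) and Neurod4 (-0.76) did not pass. None of the 3 partners passed by edgeR, with 0 at an unadjusted p under 0.05 and 0 by DESeq2; Zfp423 had 42.7 and 30.9 CPM in the neuron-like and neural-progenitor-like cells by 10x.

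Classes were not uniform. At E14.5 the neurons fell into clusters with different Ebf levels, and the progenitors into clusters that differed in Ebf1 and hardly in Ebf2 or Ebf3.

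**Figure D3:**
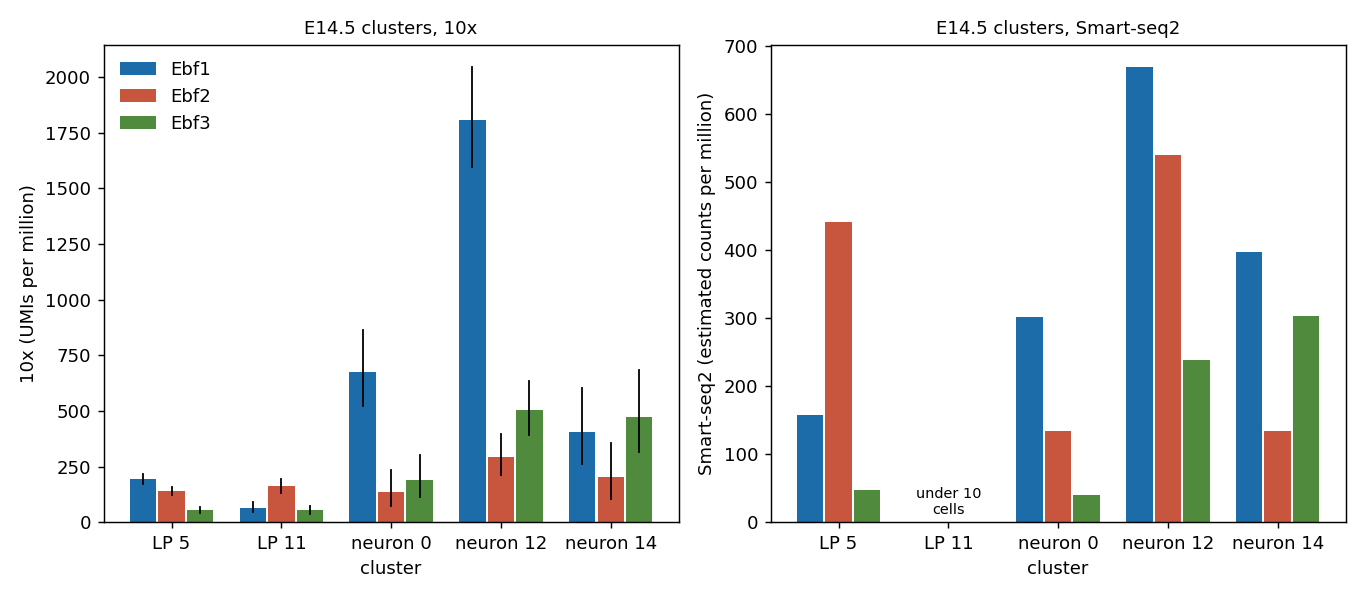
CPM of Ebf1, Ebf2 and Ebf3 in the LP-like and neuron-like clusters of E14.5, by 10x with exact 95% Poisson intervals and by Smart-seq2 without intervals. Neuron cluster 12 (led by Slc17a6) has the highest Ebf1, 1809 CPM by 10x and 669 CPM by Smart-seq2, and LP cluster 5 (led by C1qtnf3) has more Ebf1 than LP cluster 11 (led by Igfbp3), 192.8 against 66 CPM by 10x.

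The neuron cluster led by Slc17a6, a vesicular glutamate transporter gene, with Prrxl1 and Lmx1b had 1809 CPM of Ebf1 (1595 to 2043), 293.3 of Ebf2 (211.4 to 396.4) and 502.7 of Ebf3 (393.4 to 633) by 10x at E14.5. Ebf1 had a UMI in 45 of its 45 cells by 10x, and Ebf3 a count in 57 of 57 by Smart-seq2. The cluster with Gad1, Pnoc and Pax2, genes of inhibitory neurons, had 406.5 CPM of Ebf1 (260 to 605), 203.3 of Ebf2 (105.03 to 355.1) and 474.3 of Ebf3 (315.1 to 685). By Smart-seq2 that cluster had 397.7 CPM of Ebf1 and 302.8 of Ebf3. The neurons that clustered with those of E12.5 had 676 CPM of Ebf1 at E14.5 (520.6 to 863) beside 562 at E12.5, with overlapping intervals. The higher Ebf1 of neurons at E14.5 thus sat in the Slc17a6 cluster, which had no cell at E12.5.

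Among LP-like cells at E14.5, the cluster led by C1qtnf3, Sfrp2 and Tnmd had 192.8 CPM of Ebf1 (171.3 to 216.3) and that led by Igfbp3, Ngfr and Nppc 66 CPM (47.6 to 89.3) by 10x. At E16.5 the same clusters had 160 and 79.2 CPM by Smart-seq2, where cells of both were found. Ebf2 was 139.2 (120.98 to 159.3) and 161.9 CPM (132.2 to 196.4) by 10x at E14.5, and 268.9 and 335.8 CPM by Smart-seq2 at E16.5. Ebf3 was 53.7 and 53.5 CPM by 10x. Ebf1 alone separated the clusters beyond counting error. These cluster values are descriptions, without a test across samples.

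Brown adipocyte-like and LP-like cells reached the minimum of 20 cells together in 1 library only, 10x at E16.5, and were not tested across samples. Ebf2 was higher in BA-like cells, Ebf1 was lower, and Ebf3 could not be separated. For Ebf2 the 206.3 CPM of BA-like cells stood against 95.4 CPM in LP-like cells (37 UMIs), a log2 ratio of 1.11 (exact 95% interval 0.56 to 1.70). Ebf1 had 66 and 86 UMIs, a log2 ratio of -0.76 (-1.25 to -0.28), and Ebf3 18 and 19 UMIs, -0.46 (-1.47 to 0.55). Ebf2 was thus the 1 member past 2-fold, as were 47.1% of the 4767 genes with at least 20 UMIs over both sums. The 14 BA-like cells by Smart-seq2 gave Ebf2 307.2 CPM beside 265.4 CPM in LP-like cells, and Ebf1 103.9 beside 152.3 CPM, the same order with a smaller gap for Ebf2. The LP-like clusters led by Clec3b, C1qtnf3 and Igfbp3 had 184.7, 268.9 and 335.8 CPM of Ebf2 by Smart-seq2 at E16.5. Their Ebf1 was 218.3, 160.2 and 79.2 CPM. For the Igfbp3 cluster the order to BA-like cells was thus reversed in both genes.

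Among the listed brown fat genes, only Cebpb had at least 20 UMIs in the LP-like cells of that library alone. Its log2 ratio was larger than that of Ebf2, with overlapping intervals. Of the 11 listed genes, a list named for that class, 8 had at least 20 UMIs over both sums, and 5 of these had at most 1 UMI in LP-like cells, so that they reached this minimum through BA-like cells and their number above 2-fold is not given. Pparg had a log2 ratio of 3.25 (2.06 to 4.74), Cebpa 3.28 (2.10 to 4.78) and Cebpb 2.12 (1.57 to 2.71). Pparg and Cebpa had 6 UMIs each in LP-like cells. The coactivator Ppargc1a had 84 against 1 UMIs and the lipid droplet gene Cidea 74 against 1. Their ratios were not set beside that of Ebf2, because the minimum was met through BA-like cells. Ucp1, the uncoupling protein of brown fat, had 21 UMIs and Prdm16 27, both with 0 in LP-like cells, where 3 counts would be 7.74 CPM. Zfp423 had 6 and 4 UMIs, and Zfp521 0 and 6.

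The sorted bulk libraries bear on the same class. They hold Pdgfra-/Cd36+ cells of E16.5, from YFP+ cells of 6 to 8 pooled embryos, and are technical duplicates of 1 sort. Ebf1 had 149.3 and 161.6 CPM, Ebf2 348.1 and 415.8 CPM and Ebf3 16.49 and 14.7 CPM at totals of 24862787 and 32947290 counts. The levels lay above those of the Smart-seq2 BA-like cells for Ebf1 (103.9 CPM), Ebf2 (307.2 CPM) and Ebf3 (3.21 CPM). Smart-seq2 LP-like cells at E16.5 had 152.3, 265.4 and 17.4 CPM in the same order, nearer to the bulk levels for Ebf1 and Ebf3. The sort's own markers stood at 1510 and 1262 CPM for Cd36 and 6.03 and 8.41 CPM for Pdgfra. Ucp1 had 260 and 205.5 CPM and Ebf4 1 and 5 counts. With no other sorted group used here, no comparison was made.

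By Smart-seq2 and in bulk, levels of the genes can be set beside each other only per length. Their CPM were divided by the union of annotated exons, 9.756 kb for Ebf1, 6.928 kb for Ebf2 and 9.227 kb for Ebf3. On this scale Ebf2 was the main member in progenitors and brown adipocyte-like cells, Ebf1 in DF-like and PE-like cells and Ebf3 in EM-like cells from E14.5. The 10x counts of 3' ends, not divided by length, gave another order in some classes. There Ebf1 stood above Ebf2 in LP-like cells at E16.5 (221.8 against 95.4 CPM) and in neuron-like cells at E14.5 (1169 against 225.6 CPM). In LP-like cells at E14.5 their 10x intervals overlapped (156.1 and 145.4 CPM). Ebf2 stood above Ebf1 by 10x in EP-like and BA-like cells.

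**Figure D4:**
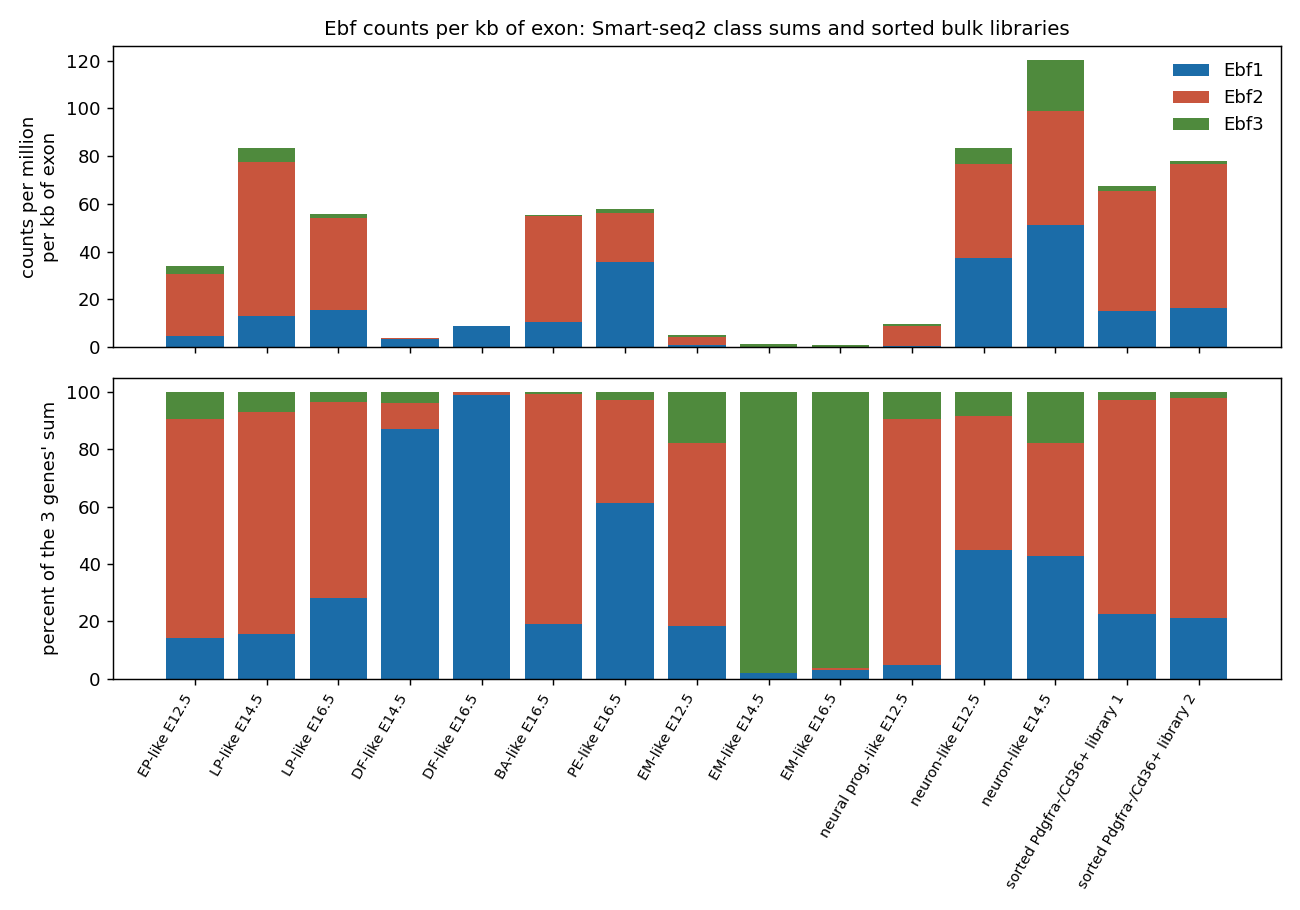
CPM per kb of exon for Ebf1, Ebf2 and Ebf3, stacked (upper panel), and each gene's percent of their sum (lower panel), in Smart-seq2 class sums and both sorted bulk libraries. Ebf2 takes 77.4% of the sum in LP-like cells at E14.5 and 80.1% in BA-like cells, Ebf1 takes 99% in DF-like cells at E16.5, and Ebf3 takes 98% of a small sum in EM-like cells at E14.5.

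Ebf2 held 76.4% of the per-kb sum of the 3 genes in EP-like cells, 77.4% and 68.7% in LP-like cells at E14.5 and E16.5 and 80.1% in BA-like cells. It held 74.6% and 76.8% in the sorted bulk libraries. Ebf1 held 15.7% of the LP-like sum at E14.5 and 28% at E16.5, values without a test. In DF-like cells the sums were 3.88 and 8.88 CPM per kb on the same days, of which Ebf1 held 87% and 99%, against sums of 83.4 and 55.8 in LP-like cells. In PE-like cells it held 61.4%. EM-like cells at E14.5 and E16.5 had sums of 1.46 and 0.852 CPM per kb, of which Ebf3 held 98% and 96.4%. Neuron-like cells had the highest sum, 120 CPM per kb at E14.5, split into 42.7% Ebf1, 39.6% Ebf2 and 17.7% Ebf3. These values rest on full-length reads spread over the annotated exons. Since the divisor is the union of all exons, transcripts that use fewer of them would lower a gene's value.

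Co-detection was read from the deeper Smart-seq2 cells. All 3 genes had a count in 28 of 50 LP-like cells at E14.5 (56%) and in 35 of 88 at E16.5 (39.8%), and no LP-like cell at E14.5 lacked all 3. In neuron-like cells the numbers were 24 of 82 at E12.5 (29.3%) and 78 cells at E14.5 (63.4%). EP-like cells had all 3 in 12 cells (10.3%) and none in 25, at a median depth of 243880 counts against 984510 in LP-like cells at E14.5.

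**Figure D5:**
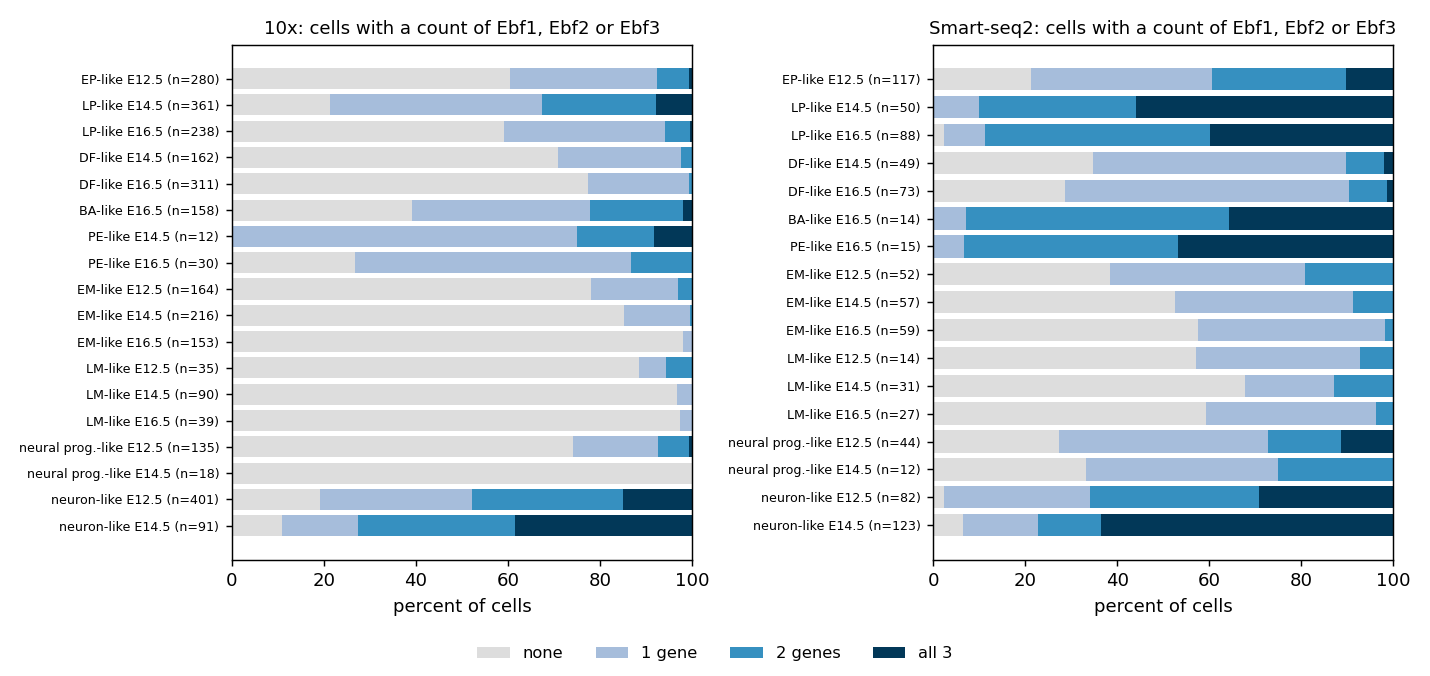
Percent of cells with a count of none, 1, 2 or all 3 of Ebf1, Ebf2 and Ebf3, by class and day, for 10x (left) and Smart-seq2 (right), with the number of cells. LP-like cells at E14.5 and neuron-like cells at E14.5 have all 3 in 56% and 63.4% of Smart-seq2 cells, and DF-like cells at E16.5 in 1.37%.

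In DF-like cells Ebf1 was mostly alone: 45 of 73 cells at E16.5 had Ebf1 only, 1 had all 3, and 21 had none. In EM-like cells Ebf3 was mostly alone, in 17 of 57 cells at E14.5 and 15 of 59 at E16.5, and no EM-like cell on any day had all 3. BA-like cells had Ebf1 and Ebf2 together in 13 of 14 cells and all 3 in 5, and PE-like cells in 14 of 15 and 7. By 10x the same classes had lower shares, 7.76% with all 3 in LP-like cells and 38.5% in neuron-like cells at E14.5, at 5423 and 2877 median UMIs. At 100000 counts a cell, the Smart-seq2 shares with Ebf2 were 90% in LP-like cells at E14.5 (78.2 to 96.7), 88.5% at E16.5 (79.9 to 94.3) and 2.78% in DF-like cells at E16.5 (0.338 to 9.68). EP-like cells at that depth had Ebf2 in 43.4% (34.1 to 53), and those with a count had a median of 442.9 CPM before thinning, beside 368.6 CPM in LP-like cells at E14.5.

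The genes whose levels ran most like each member were ranked by the lower of 2 Pearson correlations of log CPM, over 16 class sums by 10x and 13 by Smart-seq2, among 9506 genes. The points share libraries, depth and cells of related classes, so the correlations are descriptions. Ebf2 and Ebf3 were close to each other (0.858 by 10x, 0.813 by Smart-seq2): Ebf3 was the fourth most like Ebf2, and Ebf2 the ninth most like Ebf3. Nearest to Ebf2 were Ldhb (0.849 and 0.850), Ormdl3 (0.835 and 0.837) and Tsc22d1 (0.846 and 0.830), and nearest to Ebf3 were Lbh (0.908 and 0.873), Chl1 (0.835 and 0.833) and Ldhb (0.894 and 0.833). Nearest to Ebf1 were Pid1 (0.846 and 0.940), Rab3a (0.840 and 0.867) and Atox1 (0.823 and 0.849). Its correlations were 0.633 and 0.789 with Ebf2, which ranked at 1.27% of all genes by likeness to Ebf1, and 0.44 and 0.571 with Ebf3, which ranked at 8.25%. In the ranking for Ebf2, Ebf1 stood at 1.42%.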

How the data were processed

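The authors counted 10x reads with Cell Ranger on mm10 and deposited UMI counts per gene and cell. For Smart-seq2 the authors deposited expected counts per gene (kallisto 0.44.0, then tximport), and for bulk libraries whole-number read counts. Cells over 8% mitochondrial counts were left out. Cells were integrated and clustered with Seurat 5.3.0 at a resolution of 0.8, keeping out the Ebf and listed genes, and clusters were named by their mean marker z score (at least 0.8, with at least 3 markers found). Doublets were marked with Scrublet (scanpy 1.11.5; 23 cells) and kept, with their removal as an alternative. Counts were summed per class and pool (at least 20 cells), expected counts rounded, and tested with edgeR 4.0.16 (quasi-likelihood, TMM, filterByExpr, Benjamini-Hochberg over all genes tested). DESeq2 1.42.0 was an alternative. 10x levels have exact Poisson intervals and shares exact binomial (Clopper-Pearson) intervals, both for counting error only. The depth of Smart-seq2 sums is given, but amplified reads without molecular identifiers allow no interval. The test was tried on simulated data with known changes. Of 18 bulk columns, 16 were not used, because their names fit more than 1 sample; the planned bulk comparisons were therefore not made. Named genes were the members, 3 family and zinc finger partners, 11 brown fat genes and 19 neuronal factors, of which 1 is not reported here; a cluster or gene named outside these was chosen after its values were seen. The members and lists were chosen with earlier results of these data known.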

Additional observations from a re-analysis of the deposited data

Results flagged for a closer look

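Plate values of Smart-seq2 classes were compared within each class and day with at least 4 plates of 10 or more cells. Each member was taken on its own, 15 sets of a gene, class and day in all, and the members share their plates. Dixon's test was used at its 95% critical value, by which chance flags about 1 in 20 sets. For Ebf2 in LP-like cells at E16.5, plate 2 stood at 364.2 CPM beside 215.3 to 239.8 CPM on the others, a plate far from the rest. For Ebf2 in DF-like cells at E16.5, plate 2 stood at 1.8632 CPM, with at most 0.303 CPM on the others. Among EM-like cells at E16.5, Ebf1 stood at 0.78898 CPM on plate 2 and Ebf2 at 0.16527 CPM on plate 4, where the other plates had at most 0.167 CPM of Ebf1 and none of Ebf2. The last 3 of these values rest on few counts.

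The difference between DF-like and LP-like cells in Ebf3 differed between E14.5 and E16.5 (-2.928 on the log2 scale, adjusted p = 0.0423, edgeR), by a test of the interaction. In DF-like cells at E16.5 it rests on 2 UMIs by 10x and 2 counts by Smart-seq2.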

How the results depend on the processing

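Class sums rest on 1 library or set of plates per platform and day, with no animal identified, and the 10x sums of E16.5 hold the fewest counts per cell, so that differences in Ebf2 or Ebf3 within DF-like, EM-like or LM-like cells were near or under what a few counts allow. No paired analysis was possible because the replicate numbers of the labels name single cells or bulk libraries that entered no comparison. The pool stood as a block wherever it held both classes, and plates that held cells of both classes were not fitted as a block. None of the bulk comparisons or their alternatives was run, since 16 of 18 columns have names that fit both Thy1+ and Thy1- cells. With all genes allowed in the clustering the EP cluster stayed unnamed, so LP-like minus EP-like cells gave no value. At a resolution of 0.4 the neural-progenitor-like cluster also held neurons of E12.5. Fits on 1 platform or without 1 pool could not be made for the comparisons of days, for the neural classes or, on 1 platform, for the interaction.

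Of the refitted member differences, 14 turned in direction, 13 no longer passed, 5 newly passed and all others kept their direction and their side of the threshold. Values are log2 differences with edgeR's adjusted p unless another tool is named, and the cause of each change was not tested. At a clustering resolution of 0.4, DF-like minus LP-like Ebf1 was -1.19 (adjusted p = 0.0476), Ebf1 in DF-like cells of E16.5 minus E14.5 was 2.23 (adjusted p = 0.00902), and the interaction was 1.68 for Ebf1 (adjusted p = 5.94e-05), 1.43 for Ebf2 and -0.75 for Ebf3. At a resolution of 1.2, neuron-like minus neural-progenitor-like cells gave -0.13 for Ebf2 and 0.73 for Ebf3. With Smart-seq2 pools only, DF-like minus LP-like Ebf3 was -6.60 (adjusted p = 0.0682) and LP-like minus EM-like Ebf3 1.63 (adjusted p = 0.0794). On 1 platform, LP-like minus EP-like cells had a single EP-like sum, so only sizes are given. They were 2.02 for Ebf1 and 0.55 for Ebf3 with Smart-seq2 pools only, and 2.07 for Ebf1 and -0.09 for Ebf2 with 10x pools only. With doublets removed, LP-like minus EP-like Ebf3 was 0.002 and the interaction for Ebf3 -2.82 (adjusted p = 0.0565). With all deposited cells that interaction was -1.70 (adjusted p = 0.332), and DESeq2 gave 0.80 for Ebf2 and -2.23 for Ebf3.

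Leaving out 1 pool at a time, LP-like minus EP-like cells gave 1.83 to 2.24 for Ebf1, -0.071 to 1.34 for Ebf2 and -0.86 to 0.53 for Ebf3, and the interaction gave -0.05 to 1.43, -2.88 to 5.17 and -4.16 to 1.59. DF-like minus LP-like cells gave -1.09 to -0.41 for Ebf1, -7.88 to -6.71 for Ebf2 and -6.48 to -4.80 for Ebf3, and LP-like minus EM-like cells 7.28 to 8.78, 10.20 to 13.42 and 1.60 to 1.94. None of these 6 changed side.

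Of 79 refitted counts of called genes, 24 moved by over 1.5 times; they are given as percent of the genes tested, with counts where the share hides the change. DF-like minus LP-like cells had 11.4% (1615 genes), against 11.8% of fewer genes (769) with 10x pools only, 1.87% with Smart-seq2 pools only, and 6.38% to 16.499% (899 to 1658 genes) without 1 pool. LP-like minus EM-like cells had 33.4% (4703), against 39.4% of fewer genes (3033) with 10x and 10.7% with Smart-seq2 pools only. The neural classes had 4.31%, against 9.93% by DESeq2, 8.28% with RLE size factors, 9.98% with no filter, 8.83% with all genes in the clustering and 11.8% (1529 against 561 genes) without doublets. LP-like minus EP-like cells had 5.86% (823), against 10.4% by DESeq2, 0.0147% (1 gene) with 10x and 0.275% (40) with Smart-seq2 pools only, and 0% to 13.7% (up to 1483 genes) without 1 pool. The 0 came from edgeR without the Smart-seq2 E12.5 pool, with 669 genes at an unadjusted p under 0.05. DF-like cells between days had 0.723% (94), against 0.384% (50) by DESeq2, and the interaction 3.68%, against 0.867% by DESeq2 and 0.113% to 8.69% (13 to 1267 genes) without 1 pool.

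The BA-like to LP-like ratios, computed from 10x cells only, were alike under all 15 alternatives. Of the recomputed shares of 10x cells, 9 moved past their interval. At a resolution of 0.4 the 10x share with Ebf1 in DF-like cells of E14.5 was 17.3%, that with Ebf3 in neuron-like cells of E14.5 79.7%, and those of neural-progenitor-like cells at E12.5 54.95% for Ebf1, 23.7% for Ebf2 and 37.4% for Ebf3. At 1.2 the last became 20.1% for Ebf1 and 15.2% for Ebf2. With doublets removed, the share of EM-like cells of E16.5 with Ebf2 and of LM-like cells of E14.5 with Ebf1 was 0%.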
